A study of Mus musculus with 18 samples.

Results

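The genes described here encode the histones, the basic proteins around which nuclear DNA is wound. They were taken from the gene-level read counts by name: entries whose symbol begins with H1f, H2ac, H2bc, H2az, H2ax, H2aj, H3c, H3f3, H4c, H4f, Macroh2a or the older Hist symbols, leaving out names that end in -ps. Of 35960 gene names in the table, 82 matched, and 75 of these had 5 or more reads in 2 or more of the 18 libraries, as did 13552 names in all. The 75 comprised 65 replication-type genes (5 H1, 17 H2A, 18 H2B, 12 H3 and 13 H4 genes) and 10 variant genes (*H1f0*, *H1f10*, *H2aj*, *H2ax*, *H2az1*, *H2az2*, *H3f3a*, *H3f3b*, *Macroh2a1* and *Macroh2a2*). The other 7 names (*H1f6*, *H1f7*, *H1f8*, *H1f9*, *H2ac1*, *H3f3c* and *Macroh2a3*) had between 1 and 18 reads over the 18 libraries and were not tested.

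RNA was measured in microglia, astrocyte and neuron fractions of whole mouse brain at 10 months of age, from wild-type (WT) mice and from homozygous *Atxn2*-CAG100-KIN mice, a knock-in of an expanded CAG repeat that models spinocerebellar ataxia type 2, both on the C57BL/6 background. Each of the 6 groups had 3 libraries. The paper describes KIN and WT littermates of the same sex, with male and female pairs among the sequenced mice. Which libraries form a pair or come from which sex is not stated, so neither entered the main tests. The fractions were taken in turn from single dissociated brains, microglia on CD11b beads, then astrocytes on ACSA-2 beads, then neurons as the cells left after non-neuronal and CD31-positive cells had been held back. The 3 fractions of a brain are therefore not independent animals, and which libraries share a brain is not given in the sources used here, so the p-values below measure the spread between libraries. Before library preparation ribosomal RNA was depleted and a poly(A) tail was added to the RNA with *E. coli* poly(A) polymerase, so that RNA lacking a tail could also be captured, and the libraries were read from the 3′ end with molecular identifiers.

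Nucleosomes hold DNA around a core of H2A, H2B, H3 and H4, while the linker histone H1 sits where the DNA enters and leaves. Replication-type histone genes lie in clusters, mostly lack introns, and are transcribed mainly in S phase, when newly copied DNA has to be packaged. Their mRNAs usually end without a poly(A) tail, in a conserved stem-loop that is bound by the protein Slbp and cut with the help of the U7 small nuclear RNA. Variant histones are encoded by genes elsewhere in the genome, are made through the whole cell cycle and in cells that no longer divide, and mostly have polyadenylated mRNAs.

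The genomic layout followed this division (coordinates and sequences from GRCm39 with GENCODE vM39). On chromosome 13, 23 of the replication-type genes lay between positions 21899933 and 22227846, and 29 between 23715220 and 24118139. On chromosome 3, 10 lay between 96127181 and 96177448, while *H2bc27* and *H2ac25* lay together on chromosome 11 (58838848 to 58847656) and *H4c16* alone on chromosome 6 (136778551 to 136781413). The histone stem-loop was searched for on the coding strand within 200 bases after each annotated stop codon. It had to match a 16-base sequence pattern, fixed or limited at each position, whose 6-base stem paired around a 4-base loop. It was found in 63 of the 65 replication-type genes, in 1 of the 10 variants (*H2ax*) and, as background, in 86 of 21644 protein-coding genes (0.397%). *H2bc21* and *H2ac22* held no match in that window. The 64 sites began 21 to 58 bases after the stop codon (median 30.5) and had 9 distinct sequences, of which the commonest was shared by 40 members. The sites of 8 members on which the results below turn are printed with 5 flanking bases on each side, in DNA letters of the coding strand, with the stem and loop in capitals:

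H1f2: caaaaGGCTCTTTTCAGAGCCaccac

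H2ac18: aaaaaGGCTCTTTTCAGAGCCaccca

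H2bc6: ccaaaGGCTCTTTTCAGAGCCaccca

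H2bc27: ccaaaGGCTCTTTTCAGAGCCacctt

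H3c6: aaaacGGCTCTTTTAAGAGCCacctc

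H4c8: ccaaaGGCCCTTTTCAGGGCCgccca

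H4c11: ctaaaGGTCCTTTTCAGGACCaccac

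H2ax: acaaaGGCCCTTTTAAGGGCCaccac

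In the order printed, the capitals lie in the 3′ untranslated parts at chr13:23923495-23923510 (plus strand), chr3:96153348-96153363 (plus), chr13:23769514-23769529 (minus), chr11:58840175-58840190 (plus), chr13:23746077-23746092 (minus), chr13:23715628-23715643 (plus), chr13:21919607-21919622 (plus) and chr9:44246537-44246552 (plus). *H1f2*, *H2ac18*, *H2bc6* and *H2bc27* carried the commonest stem-loop, and *H4c8* and *H2ax* had the same stem and differed in the loop. The near identity of these genes limits what a count can say of a single copy. Reads placed at several loci were kept, and in 31 of the 65 replication-type genes more than 50% of the 50-base stretches of the transcript (median over the 65, 49.5%) also occurred in another transcript. Counting ignored strand, and 43 of the 65 replication-type genes and 9 of the 10 variants were overlapped by another annotated gene, 37 and 8 of them on the opposite strand. *H2bc6* overlaps *H4c4* and *H1f4*, and *H2bc27* and *H2aj* each overlap a long non-coding RNA gene on the other strand, so reads of these partners cannot be told apart.

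Library totals were 2118317 to 3296398 counts in the glial libraries and 761481 to 2017932 in the neuronal ones. Of a library's counts, 75.8% to 85.4% lay in the 10 genes most abundant over all 18 libraries. In normalised read counts (CPM, counts-per-million, on library sizes scaled by TMM, the trimmed mean of M values) 6 microglia markers summed to 434 to 744 in the microglia libraries and 4.03 to 9.72 in the astrocyte libraries, and 6 astrocyte markers to 10.8 to 15.3 and 161 to 319. The astrocyte and neuron fractions met their labels in part. In the astrocyte libraries 6 oligodendrocyte markers summed to 394 to 718 CPM, above the astrocyte markers, and 6 neuron markers to 19.9 to 88.0. *Tubb3*, a tubulin of neurons, had a median of 78.2 CPM in the neuron fraction and 10.1 in astrocytes, and *Gad1*, which makes GABA, 14.6 and 1.71. *Snap25*, *Syt1*, *Rbfox3* and *Slc17a7*, which mark mature neurons, had medians of 3.56, 0.406, 4.05 and 2.11 CPM, where 3 reads correspond to 1.93 to 4.05 CPM, and *Snap25* and *Syt1* were lower than in astrocytes. Markers of neural progenitors were present in the neuron fraction: *Sox11*, a transcription factor of immature neurons, had a median of 90.6 CPM against 1.34 and 0.748, *Igfbpl1* 30.1 against 0.319 and 0, and *Dcx*, a microtubule protein of migrating neuroblasts, 17.9 against 1.53 and 2.04. *Igfbpl1* did not pass the minimum of reads within either glial fraction, nor *Sox11* within microglia, so these are given as levels with no test. One neuronal library, WT replicate 2, stood apart with a summed 250.3 CPM of oligodendrocyte markers against 17.3 to 38.0 in the other neuronal libraries, and without it the counts of histone genes called higher in neurons, given below with it, were 70 against astrocytes and 68 against microglia.

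Histone RNA differed between the fractions by larger folds than between the genotypes. Replication-type histones were highest in the neuron fraction, lower in microglia and lowest in astrocytes, and the step was much smaller for the variants. Summed over the 65 genes, the level was 167 CPM in the lowest astrocyte library, 344 in the highest and 233 at the median. In microglia the lowest, median and highest sums were 613, 787 and 1077 CPM, and in the neuron fraction 4761, 6388 and 8262 CPM. No library of one fraction reached into the range of another. The mean neuronal sum (6449 ± 1323 CPM, SD, n = 6) was 26.7-fold that of astrocytes (241 ± 74.7) and 8.20-fold that of microglia (786 ± 164). For the 10 variants the means were 64.6 ± 13.6, 131 ± 7.82 and 264 ± 53.1 CPM in astrocytes, microglia and neurons, a 4.09-fold step from astrocytes to neurons and a 2.02-fold step from microglia to neurons. In bulk fractions, more cells with histone RNA and more of it per cell cannot be told apart.

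**Figure D1:**
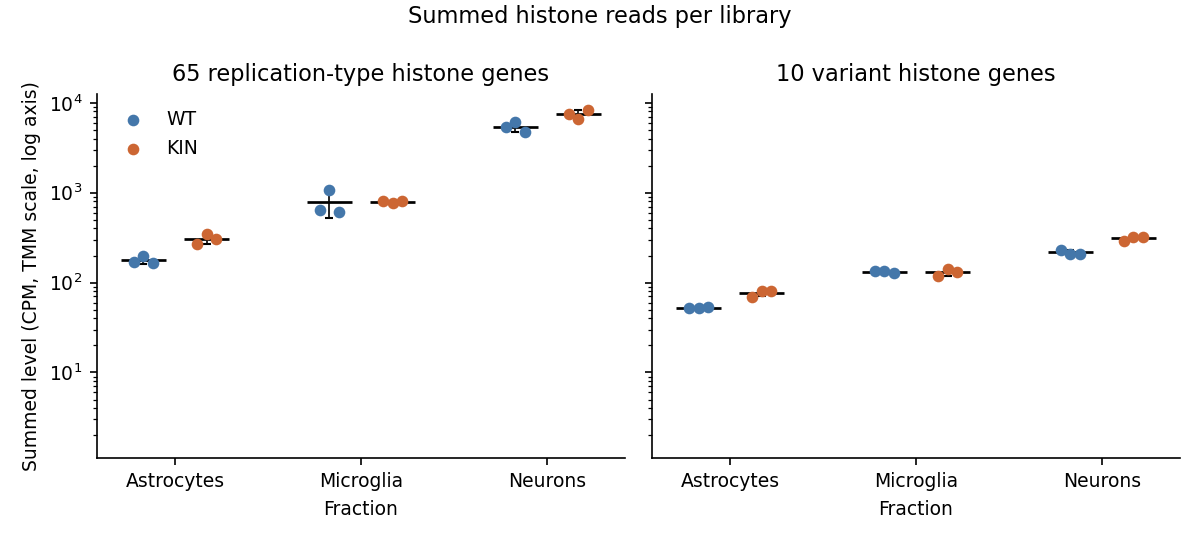
Summed level of 65 replication-type histone genes (left) and 10 variant histone genes (right) in each library, in CPM on TMM-scaled library sizes with a log axis, by fraction and genotype. Points are libraries, bars mean ± SD of 3. The replication-type sums run from 167 CPM in astrocytes to 8262 CPM in neurons without overlap between fractions, while the variant sums span 51.9 to 322 CPM.

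The variants' share of histone reads, a share of reads not corrected for gene length, was 18.9% to 24.3% in the astrocyte libraries, 11.2% to 17.1% in microglia and 3.32% to 4.601% in the neuron fraction. The make-up of the replication-type reads also differed. H4 genes supplied 49.4% ± 1.60 of them in astrocytes (SD, n = 6), 26.4% ± 3.13 in microglia and 27.04% ± 0.919 in neurons. Linker H1 genes supplied 9.60% ± 1.78, 20.3% ± 1.78 and 7.70% ± 0.563, so their share was highest in microglia in each library. The H3 share was 6.25% ± 0.768 in astrocytes, 8.50% ± 0.604 in microglia and 19.6% ± 0.564 in neurons. These shares were not tested, and their ranges over libraries did not overlap between neurons and either glial fraction for H3.

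Gene by gene, edgeR's quasi-likelihood test with Benjamini-Hochberg adjustment over all genes was used, and a gene was called changed at an adjusted p of 0.05 or less and an absolute log2 fold change (log2FC) of 1 or more. Between neurons and astrocytes 69 of the 75 histone genes were called higher and 0 lower, where 11.5% of all genes tested were called higher and 19.3% lower. The 69 comprised 64 of 65 replication-type genes and 5 of 10 variants. For 68 of the 75 every neuronal library lay above every astrocyte library, against 5.17% of all genes. Between neurons and microglia 69 were called higher and 0 lower (63 replication-type genes, 6 variants), against 10.2% and 17.3% of all genes, with a median log2FC of 3.44. Microglia against astrocytes gave 55 higher (53 replication-type, 2 variants), against 14.9% of all genes, and 4 lower (*H2bc27*, *H1f10*, *H2aj* and *Macroh2a2*), against 18.2% of all genes. In 52 replication-type genes the order neurons above microglia above astrocytes was called at each step, as it was in 0.834% of all genes. Of the 65 replication-type genes, 27 did not pass the minimum among the astrocyte libraries. The counts of 55 and 52 were not taken without them. The 75 include genes that passed the minimum through the neuronal libraries, which had to differ: 21 had 18 or fewer reads over the 6 astrocyte libraries, against 3 in microglia and 2 in neurons. Of the 47 histone genes that also passed it among the astrocyte libraries, 42 were called higher in neurons than in astrocytes (38 of 38 replication-type genes and 4 of 9 variants), against 9.01% of the 11751 genes that did so, and 0 were called lower. The median log2FC was 4.35 over the 47 and -0.37 over the 11751. Of the 71 that passed it in microglia, 65 were called higher in neurons than in microglia, against 7.99% of 10831 genes.

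**Figure D2:**
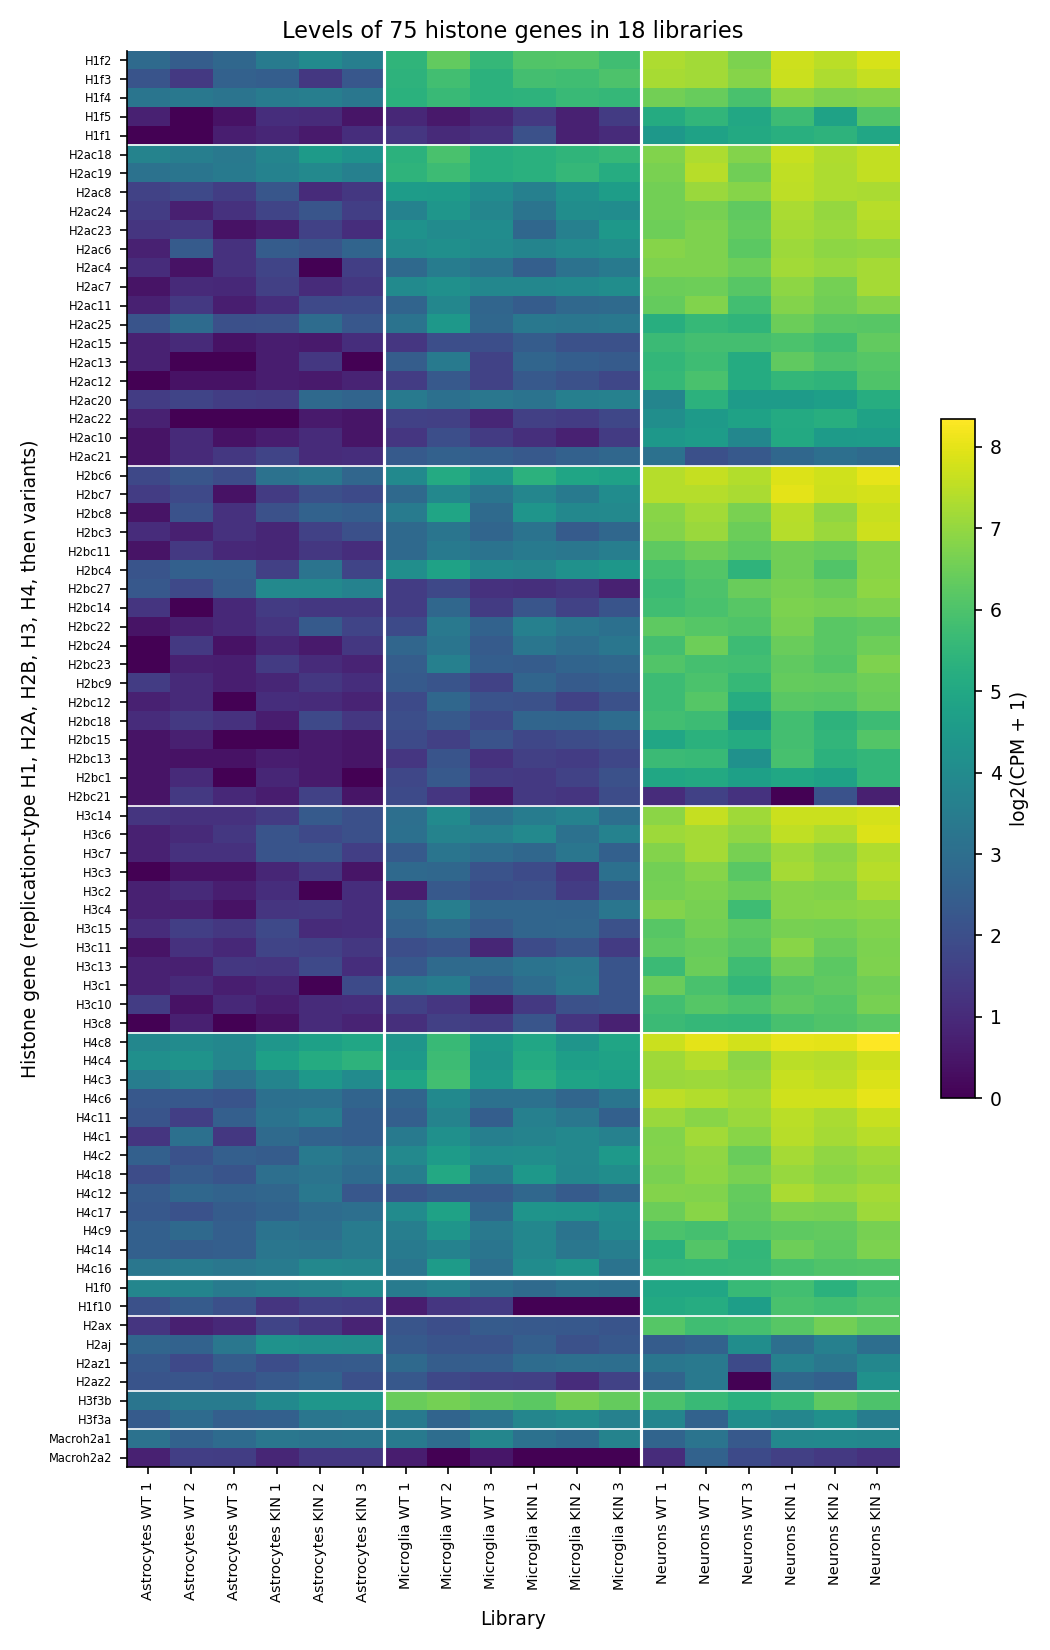
Level of each of the 75 histone genes (rows, replication-type families H1, H2A, H2B, H3 and H4 from the top, then the variants) in each of 18 libraries (columns, grouped by fraction and genotype), coloured by log2(CPM + 1). Nearly all replication-type rows brighten from the astrocyte to the microglia to the neuron columns, *H2bc21* does not, and among the variants *H2ax* does while *H3f3a* and *Macroh2a1* show no called step.

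The linker histones followed the order as a sum, but with steps of other sizes. Their sum rose 7.02-fold from astrocytes to microglia and was 3.15-fold higher in neurons than in microglia. Over all replication-type genes these steps were 3.26-fold and 8.20-fold. Of the 5 replication-type H1 genes 4 were called higher in microglia than in astrocytes. *H1f2*, a replication-type H1, had a lowest, median and highest level of 4.55, 8.22 and 14.8 CPM in astrocytes, 43.3, 60.2 and 79.4 in microglia and 102, 169 and 226 in neurons. *H1f3*, another, had 1.53, 3.68 and 5.02 CPM in astrocytes, 40.4, 54.5 and 63.5 in microglia and 112, 154 and 202 in neurons. Neither gene's fractions overlapped, and in both the step from astrocytes to microglia (log2FC 2.86 ± 0.21 and 3.86 ± 0.24, SE) was larger than that from microglia to neurons (1.48 ± 0.19 and 1.63 ± 0.19). Their adjusted p-values in edgeR were at most 2.20e-11.

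Core H2A and H2B genes, which form the dimers at the faces of the nucleosome, behaved alike in direction. *H2ac18* had 9.41, 12.7 and 22.5 CPM in astrocytes (lowest, median, highest), 35.8, 41.2 and 60.5 in microglia and 106, 160 and 196 in neurons. Its neighbour *H2ac19* on chromosome 3 was higher in neurons than in astrocytes by a log2FC of 3.82 ± 0.21. Each of the 17 H2A genes was called higher in neurons than in astrocytes and each was higher in microglia than in astrocytes, while 10 of the 17 passed the minimum in astrocytes. *H2ac21* was the exception between neurons and microglia, with 3.08 to 7.59 CPM in neurons and 3.97 to 5.96 in microglia, ranges that overlap (log2FC 0.24 ± 0.34, adjusted p in edgeR 0.638). *H2bc6* rose from 2.47 to 9.21 CPM in astrocytes to 14.6 to 40.1 in microglia and 164 to 259 in neurons. *H2bc7* had 0.314 to 3.07, 6.27 to 15.4 and 154 to 255 CPM in the same fractions, a log2FC of 6.61 ± 0.26 between neurons and astrocytes. *H2bc15*, at 0 in 2 of the 6 astrocyte libraries and with 5 reads over all 6, had 29.3 to 67.7 CPM in neurons.

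*H2bc21* and *H2bc27* departed from the H2B family. *H2bc21*, 1 of the 2 members of its class without a stem-loop match, was not called in any comparison between fractions: it had 0.353 to 2.05 CPM in astrocytes, 0.426 to 2.81 in microglia and 0 to 3.24 in neurons, on 16, 29 and 9 reads. *H2ac22*, the other member without a match, was called higher in neurons than in microglia (log2FC 3.78 ± 0.29). *H2bc27*, the chromosome 11 gene, had 51.0 to 119 CPM in neurons, 2.60 to 14.3 in astrocytes and 0.702 to 2.48 in microglia. It was thus higher in neurons than in astrocytes (log2FC 3.54 ± 0.21) but lower in microglia than in astrocytes (-2.26 ± 0.33, adjusted p in edgeR 3.39e-09), and was the only replication-type gene called in that direction.

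The H3 genes, whose product carries many of the known regulatory marks on its tail, were scarce in astrocytes, where 5 of the 12 passed the minimum. These 5 were called higher in neurons, with a median log2FC of 6.10. *H3c6* had 0.706, 2.06 and 3.46 CPM in astrocytes (lowest, median, highest), 7.47, 11.7 and 14.3 in microglia and 124, 153 and 239 in neurons. *H3c14* had 1.25, 1.57 and 4.09 CPM in astrocytes, 7.02, 9.00 and 14.9 in microglia and 118, 198 and 221 in neurons. The fractions did not overlap in either gene. *H3c3*, with 9 reads over the 6 astrocyte libraries, ranged from 0 to 1.53 CPM there and from 72.8 to 172 in neurons. *H3c10* reached 55.3 to 97.4 CPM in neurons and 0.325 to 1.77 in astrocytes, and its call in microglia over astrocytes (1.06 ± 0.45, adjusted p in edgeR 0.0482) was lost under 6 of the other settings and without any 1 of 8 libraries. Over the 12 H3 genes the median log2FC for neurons against microglia was 4.25.

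The 13 H4 genes, all of which passed the minimum in astrocytes, had a median log2FC against astrocytes of 4.38 in neurons, where each was called higher, and 0.69 in microglia, where 5 were. Between neurons and microglia their median was 2.78. *H4c8* had 13.4, 17.6 and 29.5 CPM in astrocytes (lowest, median, highest), 19.4, 24.8 and 47.6 in microglia and 204, 254 and 322 in neurons. *H4c4* had 13.2, 22.2 and 41.0 CPM in astrocytes, 19.6, 25.7 and 51.1 in microglia and 119, 168 and 210 in neurons. In both genes the glial fractions overlapped and the neuron fraction stood clear of them. *H4c6* and *H4c12* were not called between the glial fractions either, *H4c6* passing the adjusted p but not the fold at 0.65 ± 0.26 (medians of 4.63 and 7.61 CPM, and of 5.55 and 4.39 CPM, in astrocytes and microglia) and reached medians of 194 and 121 CPM in neurons. *H4c3* (log2FC 1.31 ± 0.21) and *H4c18* (1.72 ± 0.24) were 2 of the 5 called higher in microglia, *H4c3* losing its call on library totals (0.98).

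**Figure D3:**
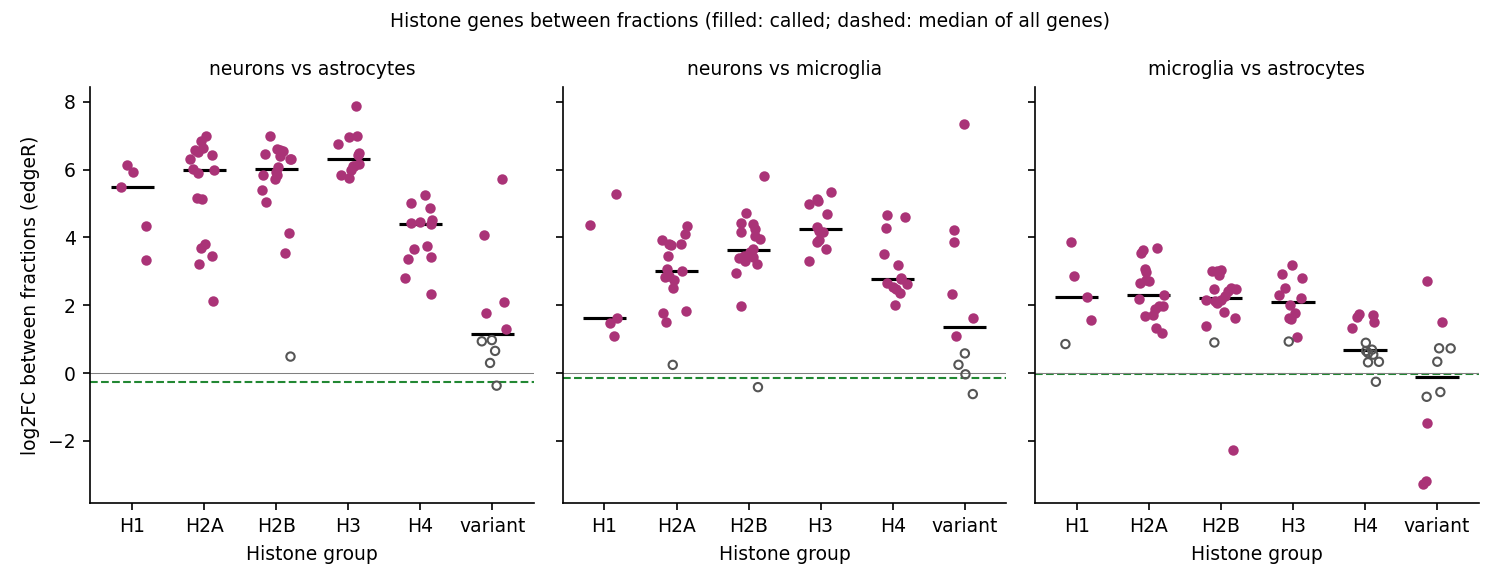
log2FC of each histone gene between fractions, from edgeR, for neurons against astrocytes, neurons against microglia and microglia against astrocytes. Each point is a gene, grouped as replication-type H1, H2A, H2B, H3 and H4 and as variants, filled points are called, short bars are group medians and the dashed line is the median of all genes. The points of the first panel include 28 genes that did not pass the minimum in astrocytes. Nearly all replication-type points of both neuronal panels are filled, 5 of the 13 H4 points are filled in the third, and the variants spread there to both sides of 0.

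The variants did not move as a group. *H2ax*, which is phosphorylated around DNA breaks and which carries the stem-loop printed above, was the variant with the replication-type pattern: 0.650, 1.18 and 2.30 CPM in astrocytes (lowest, median, highest), 2.98, 3.77 and 4.26 in microglia and 54.4, 70.4 and 92.5 in neurons, with no overlap. It did not pass the minimum in astrocytes, and its log2FC was 4.21 ± 0.23 for neurons against microglia. *H1f10*, a linker variant, was high in neurons (24.3, 45.0 and 63.2 CPM), low in astrocytes (1.44, 2.59 and 4.23) and near absent in microglia, with 9 reads over the 6 libraries. *H1f0*, the linker histone associated with cells that have left the cycle, was higher in neurons (29.3 to 55.5 CPM) than in astrocytes (10.0 to 14.2) and microglia (6.36 to 11.9), by log2FC of 1.77 ± 0.20 and 2.33 ± 0.21.

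Genes *H3f3a* and *H3f3b* encode the same H3 protein, used to replace H3 outside S phase, yet differed in pattern. *H3f3b* was highest in microglia, with 74.3, 83.6 and 96.9 CPM (lowest, median, highest) against 8.48, 12.2 and 20.0 in astrocytes and 37.8, 55.8 and 75.4 in neurons. Microglia exceeded astrocytes by a log2FC of 2.71 ± 0.20 and neurons did by 2.09 ± 0.21, while neurons were below microglia by less than the fold threshold (-0.62 ± 0.18, adjusted p in edgeR 0.00499). *H3f3a* had overlapping ranges of 4.24 to 9.20, 5.46 to 15.1 and 5.13 to 17.0 CPM in astrocytes, microglia and neurons and no call. The H2A variants placed at promoters, *H2az1* and *H2az2*, stayed within 0 to 17.4 CPM in all libraries: *H2az1* was called higher in neurons than in astrocytes (1.31 ± 0.31, though 0.86 and not called on library totals), and *H2az2* higher in neurons than in microglia (1.64 ± 0.40), with a spread from 0 to 17.4 CPM among the neuronal libraries. *H2aj*, another H2A variant, had its highest levels in the KIN astrocytes described below and was lower in microglia (3.23 to 4.77 CPM) than in astrocytes (5.20 to 18.1) by a log2FC of -1.46 ± 0.25. *Macroh2a1*, which has a large globular domain beside its histone part, had overlapping ranges (5.20 to 8.93, 6.46 to 13.2 and 4.05 to 14.6 CPM) and no call. *Macroh2a2* was called lower in microglia than in both other fractions on 24 reads in astrocytes, 3 in microglia and 15 in neurons, too few for a fold to be given.

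Other genes of the histone pathway were read in lists chosen by function. Between neurons and astrocytes the processing and chaperone lists had calls in both directions, while the S phase and cell division list had calls higher only. Of 18 names in the list of histone mRNA 3′ processing 15 were in the table and 14 were tested: between neurons and astrocytes 1 was called higher and 2 lower. *Cpsf2*, a subunit of the cleavage complex, was higher (2.17 ± 0.21), and *Mif4gd*, a partner of Slbp in translation (-2.34 ± 0.43), and *Ice1* (-1.83 ± 0.48) were lower. *Slbp* itself had 12.4 to 20.3 CPM in neurons, above the 6.50 to 11.1 in astrocytes without reaching the fold threshold. Of 20 tested histone chaperones and exchange factors 3 were called higher (*Nasp*, *Mcm2* and *Chaf1b*, which handle new histones) and 3 lower. Of 13 tested genes of S phase and cell division 9 were called higher in neurons than in astrocytes and 7 higher than in microglia, but several passed the minimum through the neuronal libraries. Of the 7 that passed it in astrocytes 4 were called higher (*Birc5*, *Mcm7*, *Rrm1* and *Tyms*), against the 9.01% given above, and of the 8 that did in microglia 3 were (*Birc5*, *Mcm7* and *Rrm1*), against 7.99%, with 0 lower in both. *Mki67*, a marker of dividing cells, had 11.9 to 23.6 CPM in neurons against at most 0.706 in astrocytes and 1.40 in microglia. The part that dividing or immature cells, marked by *Mki67*, *Sox11* and *Igfbpl1*, or the shallower neuronal libraries have in the histone levels was not tested.

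Against these fraction differences the genotype comparisons, which ask whether the CAG expansion alters histone RNA within each fraction, gave smaller effects, and the comparisons within fractions gave calls in astrocytes only. Levels in these paragraphs are CPM on a TMM scale computed within the fraction, and the comparisons were fitted within it. In astrocytes the summed level of replication-type histones was 200.2, 233.5 and 199.9 CPM in the WT libraries and 315.3, 406.4 and 358.1 in the KIN libraries, 1.70-fold higher on average without overlap. The variants summed to 61.7, 62.5 and 64.1 CPM in WT and 81.5, 95.0 and 94.1 in KIN (1.44-fold). Of 47 histone genes that passed the minimum in astrocytes, 7 were called higher in KIN and 0 lower, against 2.43% and 6.42% of all 11751 genes. DESeq2 called 3 of them, *H2bc27*, *H2aj* and *H4c4*. The median log2FC of the 47 was 0.67 against -0.0042 for all genes, and 42 lay above 0. In 20 of the 47 every KIN library lay above every WT library, against 13.4% of all genes, and in 1, *H1f10*, every KIN library lay below, against 14.4% of all genes. The KIN astrocyte libraries were the deeper ones, with 2478111 to 2829969 counts against 2118317 to 2300100. Their TMM factors, 0.669 to 1.05, all lay below those of WT, 1.12 to 1.27. Genotype and depth thus cannot be told apart in astrocytes.

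*H2bc27* had the largest change: 4.62, 3.09 and 5.25 CPM in WT astrocytes and 16.6, 16.9 and 14.0 in KIN, a log2FC of 1.86 ± 0.30 (adjusted p in edgeR 2.24e-05). *H2bc6*, the other H2B gene called, had 2.94, 4.25 and 3.38 CPM in WT and 9.13, 10.9 and 6.78 in KIN (1.31 ± 0.35, adjusted p in edgeR 0.00755). The variant *H2aj* had 6.71, 6.17 and 10.5 CPM in WT and 21.3, 20.0 and 19.4 in KIN (1.37 ± 0.26, adjusted p in edgeR 0.00026). In each of the 3 the lowest KIN library lay above the highest WT library. *H1f2*, the linker histone, had 7.55, 5.40 and 7.13 CPM in WT and 11.8, 17.5 and 12.7 in KIN (1.03 ± 0.29, adjusted p in edgeR 0.0124), again without overlap.

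The remaining calls were H4 genes. *H4c4* had 19.7, 22.0 and 15.8 CPM in WT astrocytes and 30.4, 39.9 and 48.4 in KIN (log2FC 1.04 ± 0.23, adjusted p in edgeR 0.00127). *H4c11* had 4.20, 2.31 and 5.63 CPM in WT and 9.47, 12.1 and 5.43 in KIN (1.11 ± 0.35, adjusted p in edgeR 0.0287), and KIN replicate 3 lay within the WT range. *H4c18* had 3.36, 5.02 and 4.13 CPM in WT and 8.46, 9.68 and 7.69 in KIN (1.02 ± 0.33, adjusted p in edgeR 0.0347). The calls of *H4c11* and *H4c18* were lost by DESeq2, in a fit of all 18 libraries and in most fits with 1 library left out. A further 3 genes passed the adjusted p but not the fold: *H3f3b* (0.88 ± 0.25), *H4c14* (0.90 ± 0.30) and *H4c8* (0.80 ± 0.23). All 13 H4 genes and all 5 H3 genes tested had a log2FC above 0, though none of the H3 genes was called, *H3c6* coming nearest at 1.44 ± 0.54 (adjusted p in edgeR 0.0715). Without WT replicate 1 or KIN replicate 2 the count of calls fell from 7 to 4, the smallest of the 6 counts with 1 library left out, while the calls higher over all genes fell from 285 to 165 and 190. With library totals in place of TMM the median of all genes shifted by -0.42 and 2 histone genes were called, *H2bc27*, which is 1 of the 7, higher and *H1f10*, which is not, lower, with 32 of the 47 above 0. The histone median then lay 0.68 above that of all genes. On that scale the replication-type sums were 223.2, 263.0 and 251.6 CPM in WT and 329.3, 271.2 and 316.6 in KIN, and the variant sums, 68.8, 70.4 and 80.7 CPM in WT and 85.2, 63.4 and 83.2 in KIN, overlapped.

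Markers of other cells moved with the genotype in this fraction. Of 6 neuron markers 5 were lower in KIN astrocytes, by log2FC of -1.70 for *Gad1* to -2.94 for *Slc17a7*, and the 6 summed to 104.5, 28.6 and 90.8 CPM in WT and 23.4, 24.8 and 39.3 in KIN. Of 6 oligodendrocyte markers 2 were higher (*Cnp* 1.12 ± 0.22, *Mog* 1.27 ± 0.23), the 6 summing to 468.4, 721.3 and 483.9 CPM in WT and 842.5, 844.9 and 846.9 in KIN. Of 6 astrocyte markers 2 were lower (*Fgfr3* and *Gjb6*). Among the pathway genes *Mif4gd* (1.18 ± 0.29), the chaperone and helicase subunit *Mcm2* (1.25 ± 0.40) and the centromeric H3 gene *Cenpa* (1.17 ± 0.24) were higher and *Tyms*, which makes thymidylate for DNA synthesis, was lower (-1.62 ± 0.40). The part of these shifts in the histone result was not tested.

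**Figure D4:**
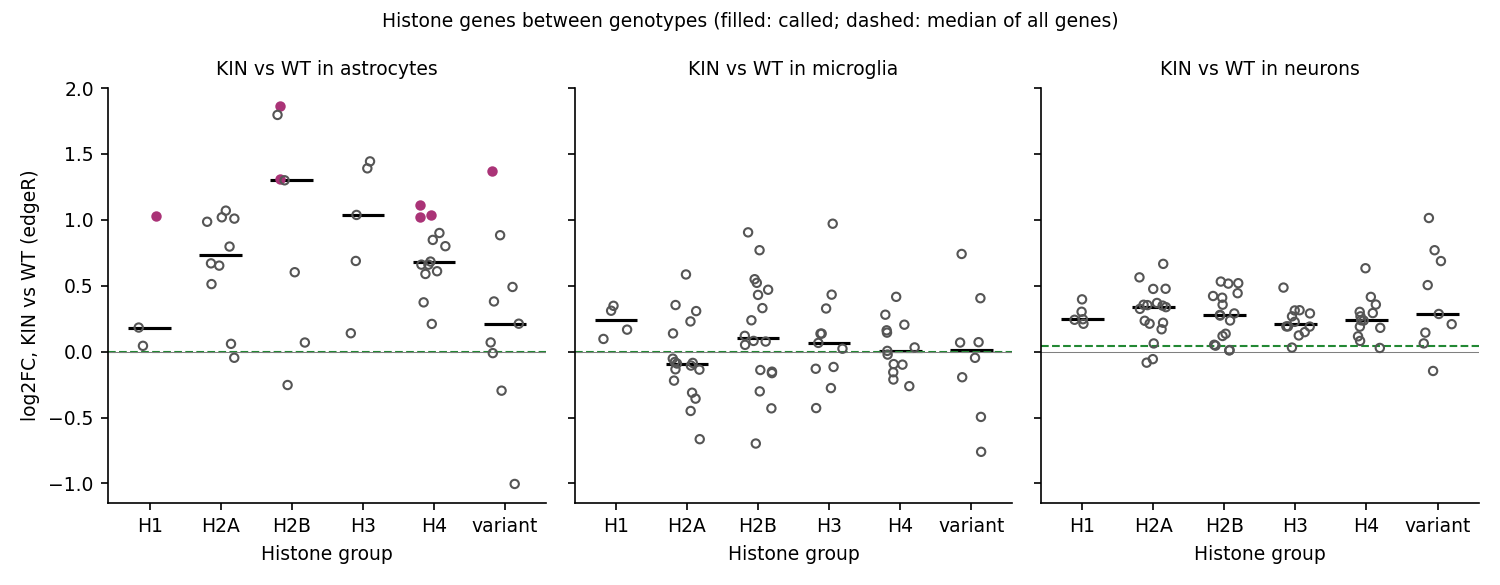
log2FC of each histone gene for KIN against WT within astrocytes, microglia and neurons, from edgeR, grouped as replication-type H1, H2A, H2B, H3 and H4 and as variants. Filled points are called, open points are not, short bars are group medians and the dashed line is the median of all genes. In astrocytes 42 of 47 points lie above 0 and 7 are filled, in microglia the points spread around 0, and in neurons 70 of 73 lie above 0 and none is filled.

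In microglia no histone gene was called among 71 tested (3 at an unadjusted p under 0.05, and 0 by DESeq2), where 1.52% of 10831 genes were called in either direction. The median log2FC was 0.05 against -0.006 for all genes. Replication-type sums were 612.7, 1045 and 591.7 CPM in WT and 782.4, 737.1 and 764.2 in KIN, so that WT replicate 2 lay above and the other WT libraries below the KIN libraries. On library totals without TMM that library did not stand out (766.0, 658.6 and 616.8 CPM in the WT libraries). Without it the median log2FC was 0.24 with 58 of 70 genes above 0 and 1 called, while without WT replicate 1 or WT replicate 3 the median turned to -0.14 (25 of 68 above 0) or -0.13 (29 of 71). The 3 with an unadjusted p under 0.05 were *H2bc18* (0.91 ± 0.36), *H2bc22* (0.77 ± 0.36) and *H3f3a* (0.74 ± 0.27). In 5 genes every KIN library lay above every WT library, against 8.33% of all genes, and in 2, *H1f0* and *H2az2*, every KIN library lay below, against 7.62%. *H1f10* was not tested here: its 9 reads all lay in WT libraries (0.565, 1.44 and 1.64 CPM) and the KIN libraries had 0, where 3 reads correspond to 1.003 to 1.16 CPM.

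In the neuron fraction no histone gene was called among 73 tested either (9 at an unadjusted p under 0.05, and 0 by DESeq2), where 0.0739% of 6765 genes were called. The fold changes leaned one way: 70 of 73 were above 0, with a median of 0.27 against 0.04 for all genes. Replication-type sums were 4944, 5534 and 4917 CPM in WT and 6228, 5625 and 6798 in KIN, without overlap (1.21-fold), and the variants summed to 214.0, 189.8 and 217.2 in WT and 239.7, 271.2 and 264.7 in KIN. On library totals the replication-type sums, 5046, 5871 and 4637 CPM in WT and 6179, 5560 and 6350 in KIN, overlapped, and those of the variants did not. In 24 genes every KIN library lay above every WT library, against 7.27% of all genes. *H1f10* was among them (30.1, 31.5 and 25.1 CPM in WT and 50.2, 46.7 and 52.0 in KIN, 0.77 ± 0.26, adjusted p in edgeR 0.592), as was *Macroh2a1* (5.02, 7.41 and 4.18 against 11.3, 12.4 and 11.1 CPM, 1.01 ± 0.43, adjusted p in edgeR 0.912). The KIN neuronal libraries were the deeper ones, with 1473194 to 2017932 counts against 761481 to 1017972, so genotype and depth cannot be told apart in this fraction. Of 4 tested oligodendrocyte markers *Mbp*, a myelin protein, was called lower in KIN (-3.65 ± 0.75, adjusted p in edgeR 0.049). The 6 markers of that list summed to 16.1, 225.9 and 23.7 CPM in WT and 31.3, 20.6 and 20.7 in KIN, WT replicate 2 being the library apart, and their part in the histone values was not tested.

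Over all 18 libraries, with the fraction as a term in the model, 74 of 75 genes had a log2FC above 0 (median 0.34 against 0.03 for all genes), and none was called (19 at an unadjusted p under 0.05, and 0 by DESeq2), against 2.07% of all genes called in either direction. *H2bc27* (0.89 ± 0.22, adjusted p in edgeR 0.0109), *H2bc6* (0.65 ± 0.19, adjusted p in edgeR 0.0374) and *H4c14* (0.63 ± 0.18, adjusted p in edgeR 0.0374) passed the adjusted p without the fold. Libraries of a brain enter this comparison more than once.

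Whether the genotype effect differed between the glial fractions was tested as an interaction over the 12 glial libraries. Of 73 histone genes 1 was called, *H2bc27*, against 1.14% of all 13277 genes called in either direction. Its KIN effect in microglia, where the libraries had 1.70, 2.41 and 1.23 CPM in WT and 1.16, 1.37 and 0.669 in KIN, lay below that in astrocytes by 2.56 ± 0.68 on the log2 scale (adjusted p in edgeR 0.0388). The call was lost by DESeq2 (-2.60) and when any 1 of 9 of the 12 libraries was left out, the difference then running from -2.33 to -2.78. The median difference over the 73 genes was -0.78 against -0.04 for all genes. Without microglia WT replicate 2 it was -0.47, and on library totals -0.15 against 0.53 for all genes, with 29 of 73 above 0. The other 72 were not called, among them *H4c4* (-1.13 ± 0.38, adjusted p in edgeR 0.13), which was called with the replicate number as a block (-1.05), and *H2aj* (-1.30 ± 0.48, adjusted p in edgeR 0.182).

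**Figure D5:**
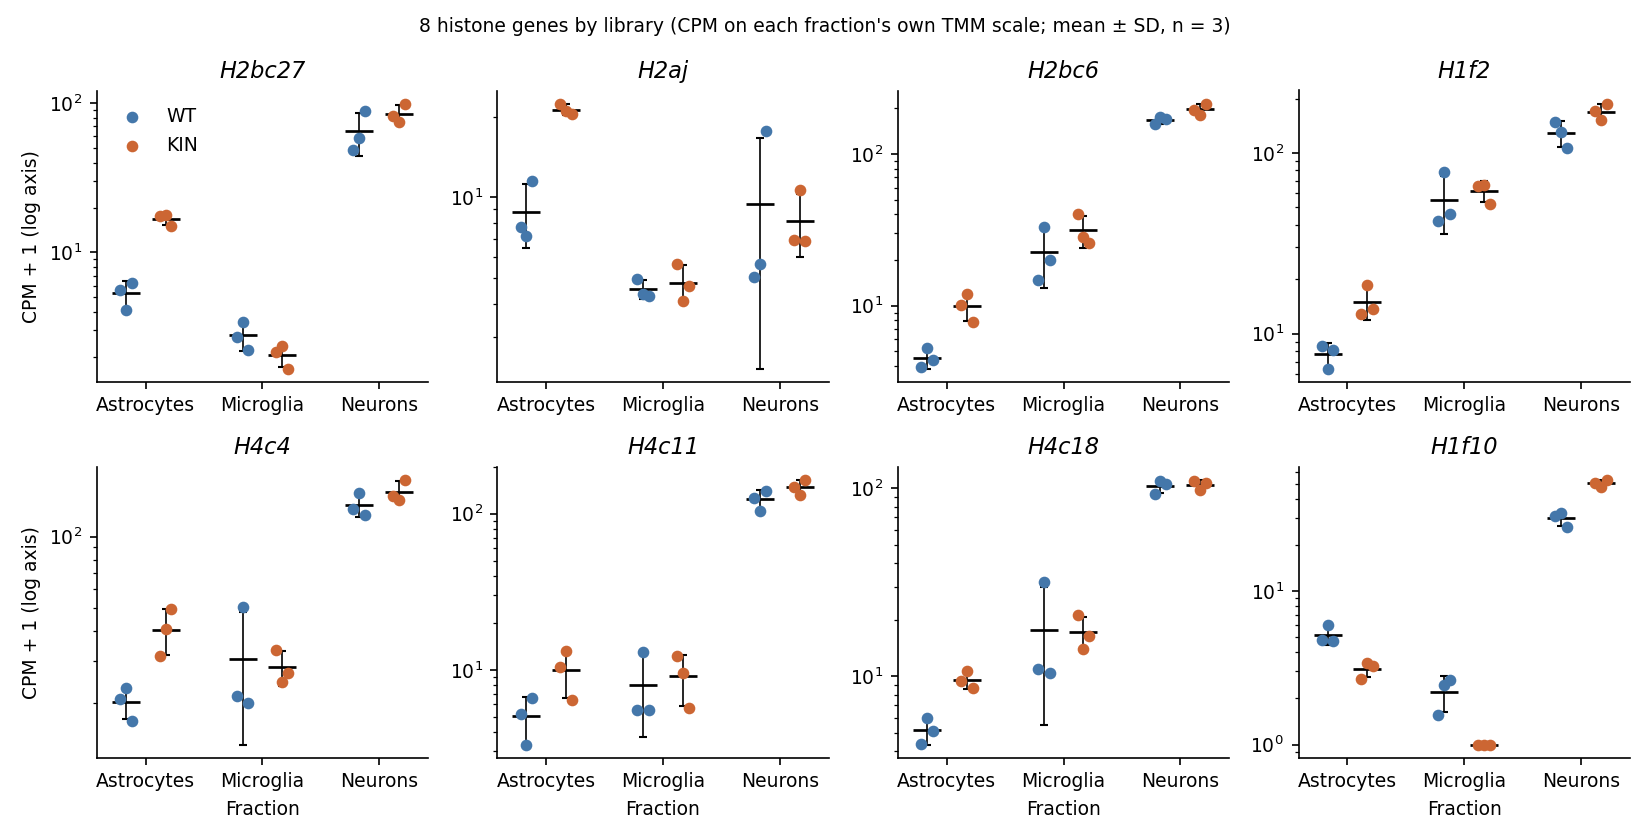
Levels of the 7 histone genes called in KIN astrocytes and of *H1f10*, in CPM + 1 on each fraction's own TMM scale with a log axis, by fraction and genotype. Points are libraries and bars mean ± SD of 3. *H2bc27* rises from 3.09 to 5.25 CPM in WT astrocytes to 14.0 to 16.9 in KIN and stays at or under 2.41 in microglia, and the *H1f10* points of the genotypes do not overlap in astrocytes (WT above) or neurons (KIN above), where neither change was called.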

How the data were processed

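The authors trimmed reads with cutadapt 4.6, checked them with FastQC 0.11.9, aligned them to mm39 (GRCm39) with Bowtie2 2.4.4 and counted them with HTSeq 2.0.2 in union mode without strand and without a mapping quality minimum, after collapsing molecular identifiers. The deposited table gives raw counts per transcript for 18 libraries. The 36 other per-sample columns hold the authors' normalized values and, like their columns of fold changes and p-values, were not used here.

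Counts were summed by gene name (137 entries without a name were kept under their identifier). Main tests used edgeR 4.0.16 (quasi-likelihood) in R 4.3.3 with TMM factors, on genes with 5 or more reads in 2 or more libraries of the fit, and p-values were adjusted over all of them. SE is the absolute log2FC divided by the square root of F, and fold changes use a prior count of 0.125. Genotypes were compared within fractions (6 libraries), over all 18 with fraction as covariate, and as an interaction in 12 glial libraries, and fractions in 1 fit of 6 group means. CPM use TMM-scaled library sizes. The floor of 3 reads covers counting error only. Alternatives were DESeq2 1.42.0, other scalings, filters, a call by adjusted p alone, a replicate block, single transcripts and leaving out each library, and library totals without TMM, which were added after seeing the data. Scripts were tested on simulated data.

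Named genes are the variants, the 12 replication-type genes with the highest mean CPM, the genes called between genotypes and the largest change per family in each genotype comparison. *H1f4*, *H2ac21*, *H2ac22*, *H2bc21*, *H2bc22* and the listed pathway genes were named after their values were seen. The histone genes and lists were chosen with earlier results of these data known. Pathway and marker lists are given by counts.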

Additional observations from a re-analysis of the deposited data

Results flagged for a closer look

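*H2bc27* was marked by a test of the difference between fractions, and *H1f10* by libraries that lay apart in opposite directions, with no test. The difference in the KIN effect on *H2bc27* between microglia and astrocytes was -2.56 on the log2 scale by the interaction test, from 1.86 ± 0.30 in astrocytes to -0.70 ± 0.68 in microglia, where its levels were near that of 3 reads.

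*H1f10*, the linker variant, had every KIN library below every WT library in astrocytes (3.78, 5.02 and 3.75 CPM in WT and 1.69, 2.42 and 2.26 in KIN, log2FC -1.003 ± 0.47) and every KIN library above every WT library in neurons (0.77 ± 0.26). Neither change passed the adjusted p, and the difference between these fractions was not tested. In both of these fractions the KIN libraries were the deeper ones.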

How the results depend on the processing

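Of the 75 histone genes, the number called with 1 library left out ran from 69 to 71 for neurons against astrocytes, 68 to 69 against microglia and 56 to 60 for microglia against astrocytes. Among those named, *H3c10* lost its call in microglia over astrocytes without any of 8 libraries, and in neurons over microglia *H2aj* lost it without neuronal WT replicate 3 or KIN replicate 2 and *H2az2* without WT replicate 2. *H2az2* and *H3f3a*, not called in neurons over astrocytes, were called without any of 4 and any of 5 libraries. With library totals 68 were called for neurons against astrocytes (of the named genes *H2az1* lost its call), 67 against microglia (*H2aj*) and 54 for microglia against astrocytes (*H3c10* and *H4c3*). In astrocytes 7 were called in KIN, and 3 by DESeq2, 2 with library totals and 4 to 8 without 1 library. The count was 6 without the filter and 5 with the filter at a mean of 10 reads. A fit of all 18 libraries and single transcripts each gave 5. At gene level *H2bc27* kept its call under each of these, *H4c18* lost it without any of 5 of the 6 libraries and *H4c11* without any of 4. *H4c11*, *H4c18*, *H1f2* and *H2bc6* also lost it by DESeq2, *H1f2* without WT replicate 2 or KIN replicate 2, *H2bc6* without WT replicate 1 and *H4c4* without WT replicate 3 or KIN replicate 3. In microglia 0 were called, 1 in a fit of all 18 libraries, and 0 to 1 without 1 library (1 without WT replicate 2). In neurons the count was 0 throughout. Over all fractions 0 were called, 3 by adjusted p alone and 0 to 1 without 1 library (1, *H2bc27*, without neuronal WT replicate 3). The interaction gave 1, and 0 by DESeq2, with library totals or by single transcripts, and 0 to 2 without 1 library. The microglia median over the histone genes, 0.05, changed sign with 1 library left out (-0.14 to 0.24), and no named gene that was called changed sign.

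With the replicate number as a replicate block the counts were 8 in astrocytes, 0 in microglia, 0 in neurons, 0 over all fractions, 2 in the interaction (*H2bc27* and *H4c4*) and 58, 69 and 69 between fractions. Summing the fractions by genotype and number, with no replicate term in the fit, gave 12. In those sums the neuronal library supplied 14.6% to 16.4% of the WT counts and 22.8% to 28.4% of the KIN counts. Whether equal numbers pair the genotypes was not settled by the correlations between libraries. Those of same-numbered KIN and WT deviations ran from -0.0371 to 0.0378, and 2 of 9 libraries correlated best with their own number. Same-numbered astrocyte and neuron libraries, which may share a brain, ran from -0.013 to 0.0252. Low values therefore cannot exclude pairs. Between astrocytes and microglia 5 of 6 libraries correlated best with their own number (-0.00702 to 0.17, 1 over 0.1). This is a hint from the data, not stated in the labels, that equal numbers mark a shared brain.

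Levels depend on the scale. On library totals the replication-type sum was 245.9 CPM in WT astrocytes and 6030 in KIN neurons, and the variant sum 73.3 in WT astrocytes, 122.7 in WT microglia and 251.1 in KIN neurons. On totals without the 10 most abundant genes the replication-type sums (WT, then KIN) were 1041 and 1423 in astrocytes, 3607 and 3750 in microglia and 31438 and 39583 in neurons, and the variant sums 310.6 and 358.0, 628.9 and 616.0, and 1283 and 1645. At the depth of the neuronal libraries, levels under 1.93 to 4.05 CPM rest on 3 reads or fewer.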
